A study of Mus musculus with 6 samples.

Results

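Chemokine ligands and chemokine receptors were examined in mouse liver RNA, as the 69 rows of the gene table whose symbol begins Ccl, Cxcl, Cx3cl or Xcl (46 ligand rows) or Ccr, Cxcr, Cx3cr, Xcr or Ackr (23 receptor rows), each followed by a digit, out of 34745 rows in all. The choice used symbols alone and no measured value. Of the 69, 35 passed the filter on low counts and were tested, 21 ligands and 14 receptors. A further 22 had a few counts only, and 12 ligand rows, among them Ccl19, Ccl26, Cxcl15 and the rows of Ccl21a and Ccl21b, stood at 0 in all libraries.

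Liver was taken from mice labelled Sox9HKO (3 libraries, replicates 9, 10 and 12) and from mice labelled Sox9f/f, where the Sox9 alleles are floxed and the titles read WT (3 libraries, replicates 5, 6 and 8). Both groups had received an MCD diet, a feed without methionine or choline that makes the liver fatty and inflamed, for 6 weeks, so no liver on normal food enters the comparison. The labels do not spell out HKO, the driver of any recombinase, or the age and sex of the mice, and they do not say whether each library is 1 animal, so p-values measure the spread between these libraries. Messenger RNA was sequenced, and gene counts per library summed to between 22826962 and 27286864.

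Sox9 itself, the gene the label names, had 411, 491 and 626 counts in the libraries labelled Sox9HKO, against 127, 138 and 143 in those labelled Sox9f/f. This goes against the label if it is read as a loss of Sox9 from the whole liver, and every direction below is between libraries by label. All 6 libraries carried the hepatocyte markers at high level, with albumin at 6.05% to 6.55% of counts in the libraries labelled Sox9HKO and 7.18% to 7.49% in those labelled Sox9f/f. Sox9HKO replicate 12 stood apart from the others. Its chi-square per degree of freedom against each other library was between 88.7 and 110, where other pairs lay between 35.1 and 81.7.

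Chemokines are small secreted proteins that draw leukocytes along a gradient by binding G protein-coupled receptors on the cell surface. They are named by the spacing of their first cysteines (CC, CXC, CX3C or C), and many bind several receptors. In fatty and inflamed liver, Kupffer cells, hepatocytes, endothelial cells and stellate cells release ligands such as CCL2, CXCL1 and CXCL10, and recruited monocytes, neutrophils and T cells carry the matching receptors. Atypical receptors bind ligands and remove or carry them without signalling through G proteins.

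Among the receptors, the positive fold change with the smallest p was that of Cxcr4, the receptor of CXCL12. Cx3cl1, or fractalkine, a membrane-bound ligand, and Ccl3, a ligand of CCR1, led the ligands with positive fold changes, and Cxcl11, an interferon-induced ligand of CXCR3, led those with negative ones. In edgeR's quasi-likelihood test 0 of 21 ligands and 0 of 14 receptors passed an adjusted p of 0.05, as did 0% of the 14137 genes tested. At an unadjusted p under 0.05, 2 ligands and 2 receptors were higher in the libraries labelled Sox9HKO, where 9.74% of all tested genes were, and 1 ligand and 0 receptors were lower, where 10.1% were. DESeq2 called 1 ligand, Cx3cl1, and 1 receptor, Cxcr4, as higher, against 2.31% of all tested genes, and 0 members as lower, against 1.97%. The groups did not overlap, with the libraries labelled Sox9HKO above, for 3 ligands and 2 receptors, where 12.2% of all tested genes had this order, and 0 members had the reverse order, where 14.3% did. Nothing is read from these counts as particular to chemokines.

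**Figure D1:**
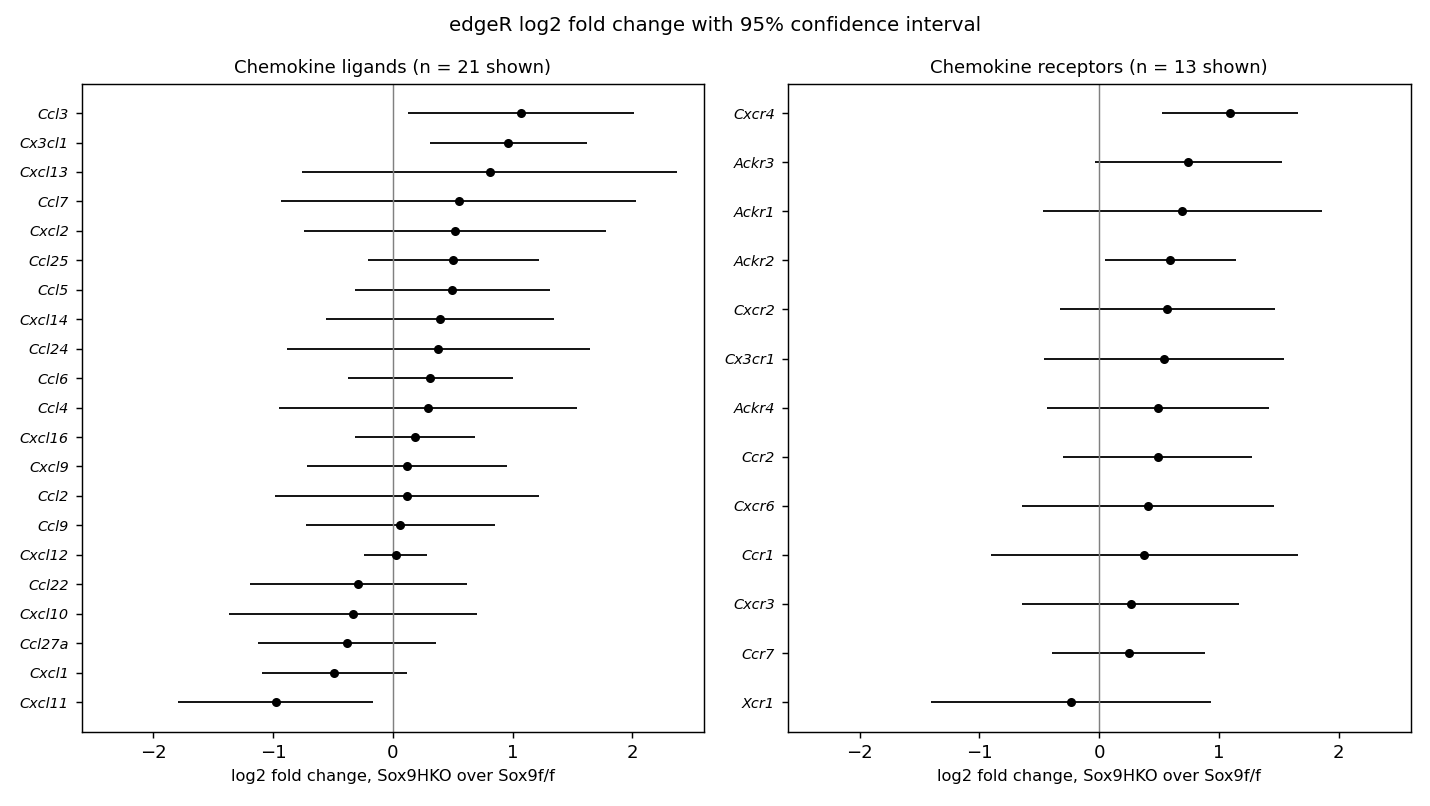
The edgeR log2 fold change (horizontal axis, Sox9HKO over Sox9f/f) of each tested ligand (left, n = 21) and of 13 of the 14 tested receptors (right) with its 95% confidence interval. The intervals of Ccl3, Cx3cl1, Cxcr4 and Ackr2 lie above 0 and that of Cxcl11 lies below 0, before any adjustment over genes.

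The log2 fold changes, Sox9HKO over Sox9f/f, had a median of 0.29 over the 21 tested ligands and 0.49 over the 14 tested receptors, beside 0.00 over all tested genes. Of the ligands 16 were positive and 5 negative, and of the receptors 13 were positive and 1 negative, where 50.5% of all tested genes were positive and 49.5% negative. Since a low gene can pass the filter through the group where it is high, these figures describe the members and support nothing further. Without the filter, 27 of 34 ligands and 20 of 23 receptors with any count were positive. The median over all 20074 genes of that fit was 0.03, and the share of them that was positive was not taken. Ligand and receptor rows that the filter leaves out held at most 21 and 23 counts in any library, so these signs support nothing further either. The ligand median was 0.02 without Sox9HKO replicate 10, 0.04 without Sox9f/f replicate 8, 0.18 without Sox9f/f replicate 6 and 0.45 without Sox9HKO replicate 12, and the receptor median was 0.30 without Sox9HKO replicate 9.

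In level per gene length, the ligands ranged over 116-fold and 3 of them made up most of the total. FPKM values, which divide counts by gene length and depth, put Cxcl12, Ccl6 and Ccl9 on top with means over all 6 libraries of 20.6, 15.5 and 12.9. Mean FPKM was at least 1 for 14 of 21 tested ligands and for 4 of 14 tested receptors. Summed FPKM of all ligands was 98.1, 107 and 66.0 in Sox9HKO replicates 9, 10 and 12, against 87.2, 71.9 and 69.2 in Sox9f/f replicates 5, 6 and 8, and the groups overlap. Summed FPKM of all receptors was 13.3, 12.3 and 8.34, against 8.62, 6.58 and 6.37, so Sox9HKO replicate 12 lay just under Sox9f/f replicate 5. Libraries are given in this order throughout. Liver RNA mixes cell types, so fewer cells of a type and less RNA per cell cannot be told apart.

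**Figure D2:**
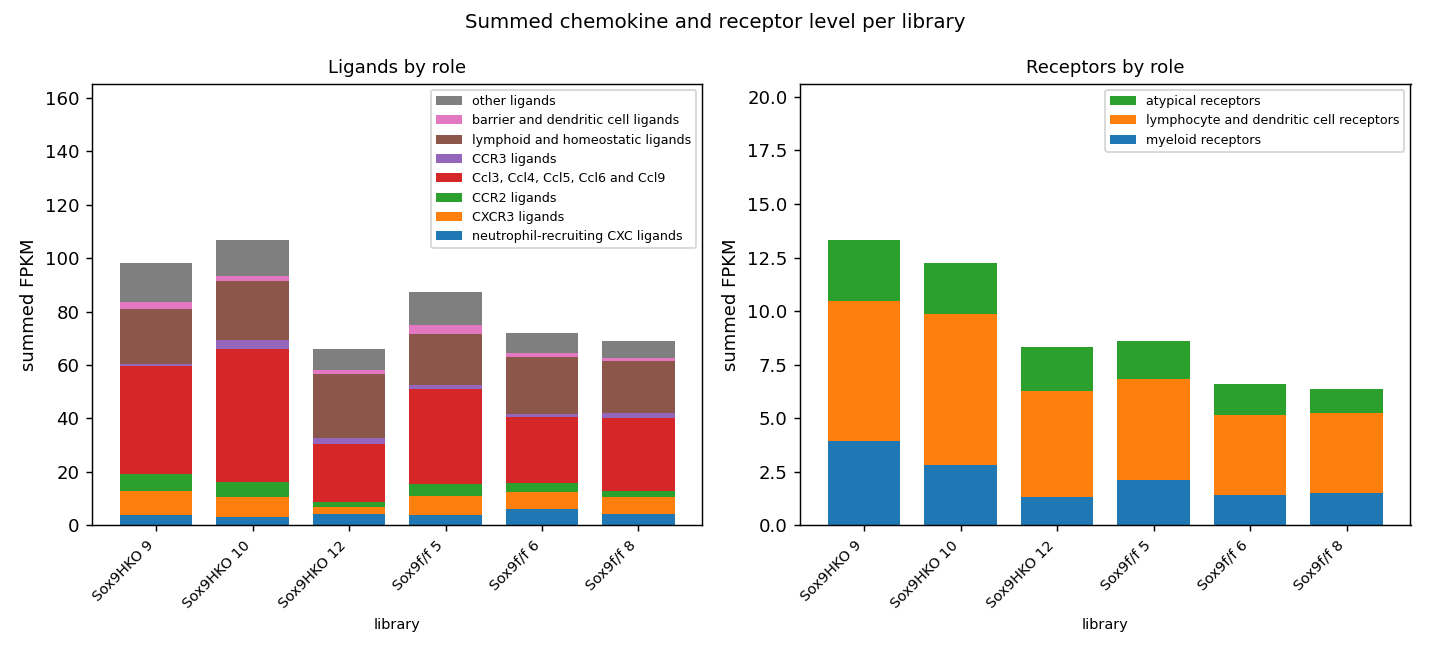
Summed FPKM (vertical axis) per library for ligands (left) and receptors (right), stacked by role, with the 3 libraries labelled Sox9HKO left of the 3 labelled Sox9f/f. Ligand totals lie between 66.0 and 107 FPKM and receptor totals between 6.37 and 13.3 FPKM, and the group of Ccl3, Ccl4, Ccl5, Ccl6 and Ccl9 varies most from library to library.

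The CXCL12 axis showed a steady ligand and a differing receptor. Cxcl12, made in liver mainly by stromal and endothelial cells and a retention signal for leukocytes, had 249, 265 and 291 CPM in the libraries labelled Sox9HKO, against 255, 284 and 254 CPM in those labelled Sox9f/f. The values interleave, with a log2 fold change of 0.02 and a 95% interval of -0.24 to 0.29 in edgeR. Cxcr4, which binds CXCL12 on leukocytes and other cells, had 3.69, 5.12 and 5.12 CPM, against 2.28, 1.73 and 2.52 CPM. The groups did not overlap, and the lowest value among the Sox9HKO libraries exceeded the highest Sox9f/f value. Its mean was 4.64 ± 0.823 CPM against 2.18 ± 0.402 CPM (SD, n = 3 each), a log2 fold change of 1.09 ± 0.25 (SE). The edgeR adjusted p over all genes was 0.144 and that of DESeq2 was 0.0115, so the call rests on the tool.

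Ackr3, the atypical receptor that scavenges CXCL12 and CXCL11, had 1.75, 1.69 and 1.05 CPM, against 0.867, 1.08 and 0.730 CPM. Sox9HKO replicate 12 lay just under Sox9f/f replicate 6, and the log2 fold change was 0.74 ± 0.34 with an edgeR adjusted p of 0.269. The ratio of Cxcl12 to Cxcr4 in FPKM was 14.1, 10.8 and 11.9 in the libraries labelled Sox9HKO and 23.4, 34.3 and 21.1 in those labelled Sox9f/f. This order follows from Cxcr4, since Cxcl12 interleaves. Cxcr4 lies on chromosome 1 (128588199 to 128592293, minus strand) and Cxcl12 on chromosome 6 (117168535 to 117181367, plus strand), as the table gives them on GRCm38.

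**Figure D3:**
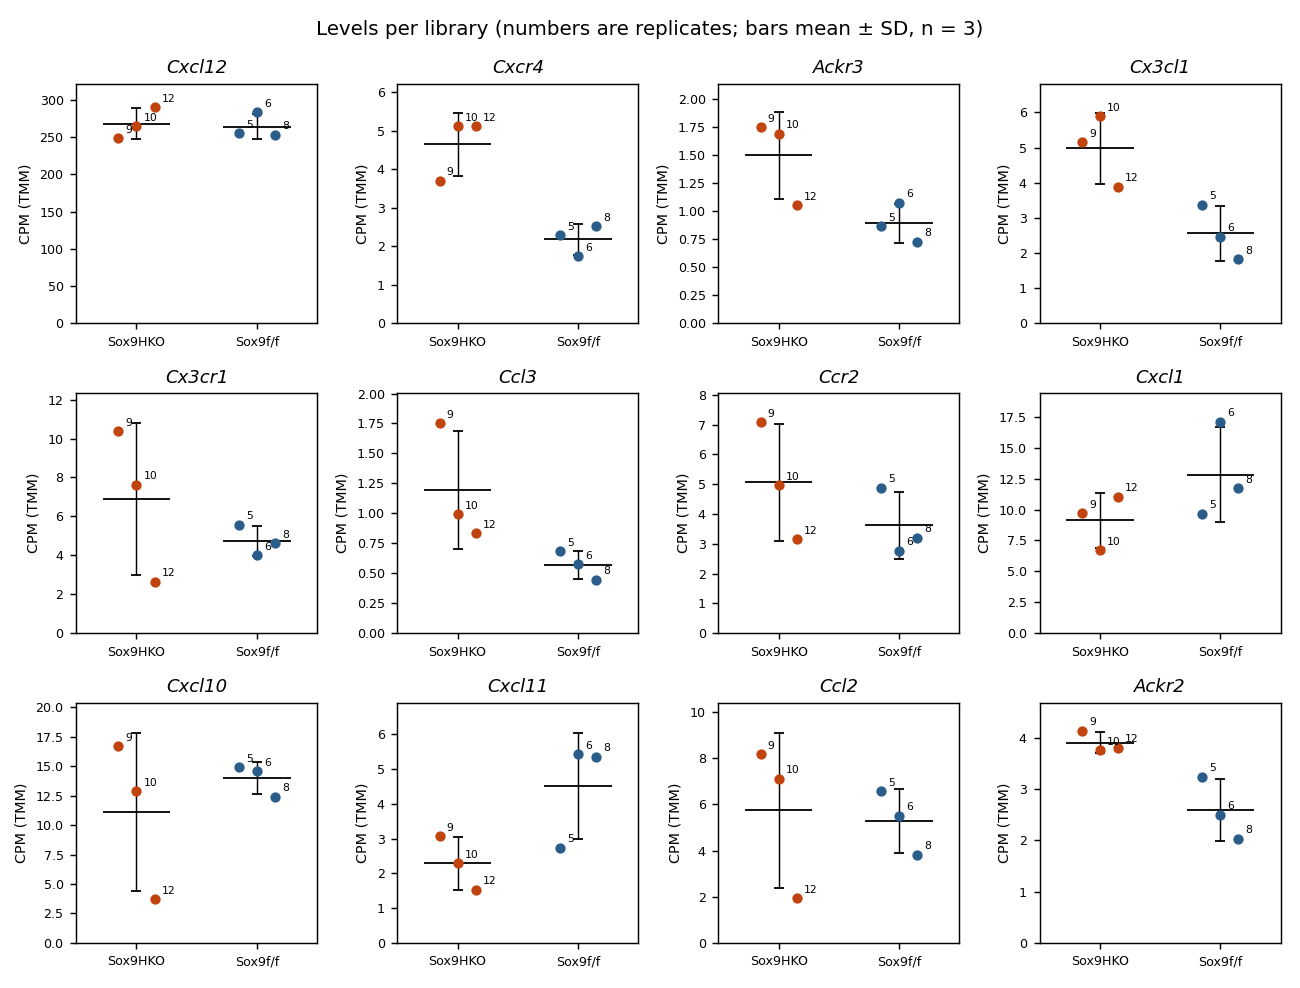
CPM with TMM scaling (vertical axis, from 0) of 12 members in each library, labelled by replicate number, Sox9HKO left and Sox9f/f right, with bars for the mean ± SD (n = 3). The groups are apart for Cxcr4, Cx3cl1, Ccl3 and Ackr2 and interleave for Cxcl12, and replicate 12 is the lowest of the 6 libraries for Cx3cr1, Cxcl10, Cxcl11 and Ccl2.

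The fractalkine pair came next. Cx3cl1, a ligand with a membrane anchor that holds and draws monocytes, had 5.15, 5.89 and 3.88 CPM, against 3.38, 2.46 and 1.83 CPM. The groups were apart, though Sox9HKO replicate 12 and Sox9f/f replicate 5 were close. The log2 fold change of Cx3cl1 was 0.96 ± 0.28, with an adjusted p of 0.158 in edgeR and 0.0499 in DESeq2, at the threshold itself. Its receptor gene Cx3cr1, carried by monocytes and some macrophages and T cells, had 10.4, 7.62 and 2.65 CPM, against 5.57, 4.0 and 4.62 CPM. Here Sox9HKO replicates 9 and 10 were the highest and replicate 12 the lowest of all 6 libraries, and the log2 fold change was 0.54 ± 0.43. Without Sox9HKO replicate 12 it was 0.92, and without replicate 9 it was 0.12. The Cx3cr1 row overlaps 5 other genes of the table, so its counts are uncertain where reads were shared.

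Cx3cl1 sits on chromosome 8 between the CC ligands Ccl22 and Ccl17, which attract T cells through CCR4, within 66.4 kb. Ccl22 had 3.84, 3.06 and 1.89 CPM, against 5.61, 2.69 and 2.47 CPM, with the groups overlapping and a log2 fold change of -0.29 ± 0.39. Ccl17 held at most 8 counts in any library and was not tested. The promoters of Cx3cl1 and Cxcr4, the pair called by DESeq2, are shown from 250 bases before to 50 after the annotated start (RefSeq, GRCm38.p6), with TATAAA on either strand in capitals. Cx3cl1 is at chr8:94771930-94772229 on the plus strand and Cxcr4 at chr1:128592250-128592549 on the minus strand.
Cx3cl1: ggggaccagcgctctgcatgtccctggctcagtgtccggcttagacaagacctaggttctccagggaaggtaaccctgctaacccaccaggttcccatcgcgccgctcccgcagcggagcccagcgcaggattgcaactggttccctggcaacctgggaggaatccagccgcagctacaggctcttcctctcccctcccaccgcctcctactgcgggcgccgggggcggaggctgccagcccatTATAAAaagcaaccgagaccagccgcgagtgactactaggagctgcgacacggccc
Cxcr4: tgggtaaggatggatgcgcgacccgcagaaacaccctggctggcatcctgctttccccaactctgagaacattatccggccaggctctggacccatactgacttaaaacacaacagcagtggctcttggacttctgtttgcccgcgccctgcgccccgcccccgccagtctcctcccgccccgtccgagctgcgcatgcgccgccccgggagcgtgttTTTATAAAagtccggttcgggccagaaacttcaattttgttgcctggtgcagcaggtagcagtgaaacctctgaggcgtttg
The match begins at -6 in Cx3cl1 and at -32 in Cxcr4, where -1 is the base before the start and overlapping matches on both strands are joined. TATAAA is held by 13.6% of all 32851 promoters listed and by 8 of the 25 tested members for which a promoter was found. The tested row of Ccl27a was not looked up, since its symbol has several rows and an untested one was used.

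The 5 ligands Ccl3, Ccl4, Ccl5, Ccl6 and Ccl9, most of them known to act on CCR1, all had positive log2 fold changes, between 0.06 and 1.07, and lie together within 139 kb of chromosome 11. Ccl3, or MIP-1 alpha, made by activated macrophages, had 1.75, 0.994 and 0.835 CPM, against 0.685, 0.577 and 0.446 CPM. These are 47, 27 and 23 counts, against 15, 15 and 11, so the level is low though the groups do not overlap. Its log2 fold change was 1.07 ± 0.41 with an edgeR adjusted p of 0.214, and it was 0.68 without Sox9HKO replicate 9. Ccl4, its close relative and neighbour, had 1.01, 0.957 and 0.726 CPM, against 1.28, 0.693 and 0.243 CPM, with the highest and the lowest value both among the libraries labelled Sox9f/f.

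Ccl5, or RANTES, a product of T and NK cells, had 3.66, 4.31 and 2.43 CPM, against 3.33, 1.46 and 2.6 CPM, a log2 fold change of 0.50 ± 0.35. It was 0.24 without Sox9f/f replicate 6, 0.31 without Sox9HKO replicate 10 and 0.78 without Sox9f/f replicate 5. Ccl6, a mouse CCR1 ligand of myeloid cells, had 39.2, 63.7 and 27.7 CPM, against 42.4, 26.9 and 36.0 CPM. Its log2 fold change of 0.31 ± 0.30 rested on Sox9HKO replicate 10, without which it was -0.07. Ccl9, another mouse ligand of CCR1, had 51.3, 55.8 and 19.9 CPM, against 47.5, 39.5 and 34.8 CPM. Sox9HKO replicates 9 and 10 were the highest and replicate 12 the lowest, and the log2 fold change was 0.06 ± 0.34 with an interval of -0.73 to 0.85.

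Ccr1, a receptor for several of these ligands on neutrophils and monocytes, ranged from 0.980 to 3.58 CPM in the libraries labelled Sox9HKO and from 1.05 to 2.65 CPM in those labelled Sox9f/f. Ccr1 belongs to a run of 8 receptor genes within 469 kb of chromosome 9, of which 5 were tested, 4 positive and 1 negative, between -0.23 and 0.49.

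The CCR2 axis brings monocytes out of the blood. Ccl2, or MCP-1, its main ligand, had 8.17, 7.11 and 1.92 CPM, against 6.57, 5.50 and 3.81 CPM. Its range in the libraries labelled Sox9HKO enclosed that of the libraries labelled Sox9f/f, and the log2 fold change of 0.12 ± 0.48 leaves an interval of -0.98 to 1.22. Ccl7, the neighbouring ligand MCP-3, had 31, 33 and 8 counts, against 23, 13 and 7. Ccr2, the receptor, had 7.09, 4.97 and 3.16 CPM, against 4.88, 2.77 and 3.20 CPM, a log2 fold change of 0.49 ± 0.34 with an edgeR adjusted p of 0.444. Without Sox9HKO replicate 9 it was 0.17, and without Sox9HKO replicate 12 or Sox9f/f replicate 5 it was 0.74 or 0.77, so the values hang on single libraries.

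The 3 ligands of CXCR3, induced by interferon and drawing T and NK cells, are neighbours within 44.1 kb of chromosome 5. All 3 were lowest in Sox9HKO replicate 12. Their log2 fold changes ran from -0.98 to 0.12, with standard errors of 0.35 to 0.45. Cxcl11 had 3.06, 2.28 and 1.52 CPM in the libraries labelled Sox9HKO, against 2.74, 5.42 and 5.35 CPM in those labelled Sox9f/f. Sox9f/f replicates 6 and 8 stood above all others and replicate 5 inside the range of the libraries labelled Sox9HKO. The log2 fold change of Cxcl11 was -0.98 ± 0.35, with an adjusted p of 0.198 in edgeR and 0.116 in DESeq2, and it was negative in all 16 alternatives run, between -1.25 and -0.47. Cxcl10 had 16.7, 12.9 and 3.70 CPM, against 14.9, 14.6 and 12.4 CPM, so only Sox9HKO replicate 12 was far off, and the log2 fold change was -0.33 ± 0.45 with it and 0.08 without it. Cxcl9 had 14.5, 13.1 and 5.12 CPM, against 12.5, 8.81 and 9.01 CPM, a log2 fold change of 0.12 ± 0.36.

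Cxcl10 and Cxcl11 overlap Art3 on the other strand, so their reads cannot be told apart where counting ignored strand. In FPKM the ratio of Cxcl11 to Cxcl10 was 0.169, 0.163 and 0.379, against 0.169, 0.343 and 0.397, and these overlap. Cxcr3, their receptor on T cells, had 1.38, 1.36 and 1.09 CPM, against 1.60, 1.0 and 0.608 CPM, with the highest and the lowest value both among the libraries labelled Sox9f/f. Its log2 fold change of 0.26 ± 0.39 turned to -0.02 without Sox9f/f replicate 8.

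Neutrophil-recruiting CXC ligands, which act on CXCR2, were led by Cxcl1, made by hepatocytes and other cells in inflamed liver. Cxcl1 had 9.70, 6.70 and 11.03 CPM in the libraries labelled Sox9HKO, against 9.67, 17.1 and 11.7 CPM in those labelled Sox9f/f. The groups overlapped through Sox9f/f replicate 5, and the log2 fold change was -0.49 ± 0.26 with an interval of -1.10 to 0.11. It was -0.21 without Sox9f/f replicate 6 and -0.31 without Sox9HKO replicate 10. Cxcl2, a neighbouring paralog of similar function on the same strand, had 21, 46 and 20 counts, against 28, 16 and 9, a log2 fold change of 0.52 ± 0.55. Cxcr2, their receptor on neutrophils, had 0.560, 1.03 and 0.980 CPM, against 0.548, 0.693 and 0.487 CPM, a log2 fold change of 0.57 ± 0.39. Cxcl3 and Cxcl5 did not pass the filter, with at most 21 counts in any library.

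Promoters of Cxcl1 and Cxcl2, with opposite signs of fold change, and of the neighbours Cxcl9 and Cxcl10, both lowest in Sox9HKO replicate 12, are shown for the same window (RefSeq, GRCm38.p6). Capitals mark matches on either strand to the kappaB consensus bound by NF-kappaB, to the interferon-response core (GAAA, any 2 bases, GAAA) and to TATAAA. In order they lie at chr5:90890995-90891294 and chr5:90903649-90903948 on the plus strand and at chr5:92328030-92328329 and chr5:92348840-92349139 on the minus strand.
Cxcl1: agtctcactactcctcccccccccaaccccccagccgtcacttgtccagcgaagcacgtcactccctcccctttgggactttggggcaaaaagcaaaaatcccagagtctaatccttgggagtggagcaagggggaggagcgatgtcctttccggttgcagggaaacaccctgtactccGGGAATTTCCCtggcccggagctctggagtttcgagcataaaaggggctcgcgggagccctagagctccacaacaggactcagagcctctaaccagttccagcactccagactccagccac
Cxcl2: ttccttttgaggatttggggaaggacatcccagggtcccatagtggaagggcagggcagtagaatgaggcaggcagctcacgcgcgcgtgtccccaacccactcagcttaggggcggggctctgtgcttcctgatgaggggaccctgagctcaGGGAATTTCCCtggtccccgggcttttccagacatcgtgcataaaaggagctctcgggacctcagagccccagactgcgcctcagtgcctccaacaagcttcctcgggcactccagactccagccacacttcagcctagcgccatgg
Cxcl9: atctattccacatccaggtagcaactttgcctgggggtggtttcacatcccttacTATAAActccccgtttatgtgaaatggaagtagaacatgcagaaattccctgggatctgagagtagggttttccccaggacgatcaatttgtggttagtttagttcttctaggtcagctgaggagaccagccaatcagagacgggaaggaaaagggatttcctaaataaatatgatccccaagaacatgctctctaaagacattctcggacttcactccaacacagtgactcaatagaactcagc
Cxcl10: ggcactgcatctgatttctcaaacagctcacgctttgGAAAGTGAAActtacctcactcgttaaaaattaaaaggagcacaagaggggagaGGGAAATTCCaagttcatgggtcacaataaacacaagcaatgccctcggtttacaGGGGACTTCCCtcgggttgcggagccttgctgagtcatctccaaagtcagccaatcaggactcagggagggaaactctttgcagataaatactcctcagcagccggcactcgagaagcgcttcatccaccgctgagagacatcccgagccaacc
Cxcl1 and Cxcl2 share the run GGGAATTTCCC, at -71 in Cxcl1 and at -97 in Cxcl2, which matches the kappaB consensus on both strands. Cxcl10 holds kappaB matches from -159 and from -104 and the interferon-response core from -213, and Cxcl9 holds TATAAA from -195 in this window. The kappaB consensus is held by 8.46% of all promoters listed and by 6 of the 25 tested members for which one was found. The interferon-response core is held by 3.44% of all promoters and by 2 of the 25. A match is a description of letters and not a measured site.

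Of the other ligands, Ccl25 had groups that did not overlap, while Cxcl14, Cxcl16, Ccl24 and Cxcl13 overlapped. Cxcl16, the transmembrane ligand of CXCR6, had 25.2, 25.3 and 17.0 CPM, against 24.6, 19.2 and 15.5 CPM, a log2 fold change of 0.19 ± 0.22. It was 0.037 without Sox9f/f replicate 8 and 0.38 without Sox9f/f replicate 5. The Cxcl16 row overlaps Zmynd15 on the other strand, so its counts are uncertain where reads were shared. Cxcl14, an epithelial and stromal chemokine, had 11.8, 11.05 and 5.26 CPM, against 11.5, 5.04 and 4.87 CPM. It was high in Sox9HKO replicates 9 and 10 and in Sox9f/f replicate 5, and low in the other 3. Ccl25, a ligand of CCR9, had 28, 33 and 31 counts, against 14, 22 and 22, with the groups apart in CPM and a log2 fold change of 0.50 ± 0.31 (edgeR adjusted p = 0.391). Ccl24, an eosinophil ligand of CCR3, ranged from 0.858 to 4.79 CPM, against 1.65 to 3.00 CPM, and Cxcl13, the B cell ligand of CXCR5, from 4 to 35 counts, against 7 to 13 counts. Ccl27a, a skin chemokine, had a log2 fold change of -0.38 ± 0.32, but its row overlaps Il11ra1 and has near-identical copies in the table, so it is uncertain.

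Receptors of lymphocytes and dendritic cells described here, other than Cxcr4, had small fold changes. Ccr7, which takes dendritic cells and T cells to lymph nodes, had 2.61, 2.32 and 1.71 CPM, against 2.24, 1.62 and 1.74 CPM, a log2 fold change of 0.25 ± 0.28. It was 0.11 without Sox9HKO replicate 9 and 0.40 without Sox9HKO replicate 12 or Sox9f/f replicate 5. Its ligand rows Ccl19, Ccl21a and Ccl21b stood at 0 in all libraries, and 1 of the 3 rows of Ccl21c held 1 count. Cxcr6, a receptor of liver-resident T and NK cells, had 21, 16 and 16 counts, against 17, 11 and 7, and lies within Fyco1 on the other strand. Xcr1, of cross-presenting dendritic cells, was the 1 receptor with a negative log2 fold change, -0.23 ± 0.51, and its ligand Xcl1 held at most 10 counts.

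All 4 atypical receptors had positive log2 fold changes, between 0.49 and 0.74. Ackr2, a scavenger of inflammatory CC ligands, had 4.14, 3.76 and 3.81 CPM in the libraries labelled Sox9HKO, against 3.24, 2.5 and 2.03 CPM in those labelled Sox9f/f. The groups did not overlap, with means of 3.90 ± 0.208 CPM against 2.59 ± 0.611 CPM (SD, n = 3 each). Its log2 fold change was 0.59 ± 0.24, with an adjusted p of 0.225 in edgeR and 0.205 in DESeq2. Ackr1, which carries chemokines across venular endothelium, had 35, 21 and 18 counts, against 20, 13 and 7, and overlaps Cadm3. Ackr4, a scavenger of CCR7 and CCR9 ligands, had 24, 33 and 17 counts, against 11, 15 and 21, and lies inside Acad11, a gene of far higher count.

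Not tested were 25 ligand rows, 12 of them at 0 everywhere, and 9 receptor rows, with at most 21 and 23 counts in any library. Cxcr1, a neutrophil receptor, had 15, 23 and 6 counts in the libraries labelled Sox9HKO, against 1, 7 and 6 in those labelled Sox9f/f. Cxcl5 had 4, 21 and 6 counts, against 5, 10 and 2. Ccl11, or eotaxin, had 0, 4 and 3 counts, against 0 in each. Ccl8, Ccl12, Ccl20 and Ccl28 each held at most 5 counts in any library, so differences between the groups were not detectable at this depth.

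Much of the variation ran between libraries of the same label. Sox9HKO replicate 12 was the lowest of the 6 libraries for 10 of the 35 tested members and the highest for 1, while replicates 9 and 10 were each the highest for 14. Sox9f/f replicate 8 was the lowest for 13 and the highest for 0. Over all tested genes the shares are more even, with replicate 12 the lowest for 21.8% and the highest for 20.7%, replicate 9 the highest for 12.7% and replicate 10 for 18.6%. Sox9f/f replicate 8 was the lowest for 16.8% of all tested genes and the highest for 18.0%. Of 14 tested receptors, replicate 9 was the highest for 9 and replicate 10 for 4. Without Sox9HKO replicate 12, 6 of 15 tested receptors were higher at an unadjusted edgeR p under 0.05, as were 10.8% of all genes tested in that fit, in place of 2 of 14 receptors and 9.74% of all genes with all 6 libraries. The number of receptors was 1 without Sox9HKO replicate 9, without Sox9HKO replicate 10, without Sox9f/f replicate 6 and without Sox9f/f replicate 8. In those fits, in this order, 8.70%, 6.68%, 7.22% and 6.46% of all tested genes were higher. Without Sox9f/f replicate 5 the number was 2 of 15 receptors, beside 11.1% of all tested genes. The filter was run anew in each of these fits, so a low receptor can pass it through the group where it is high. The numbers of receptors thus describe how far single libraries move the result, and nothing is read from them as particular to receptors.

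**Figure D4:**
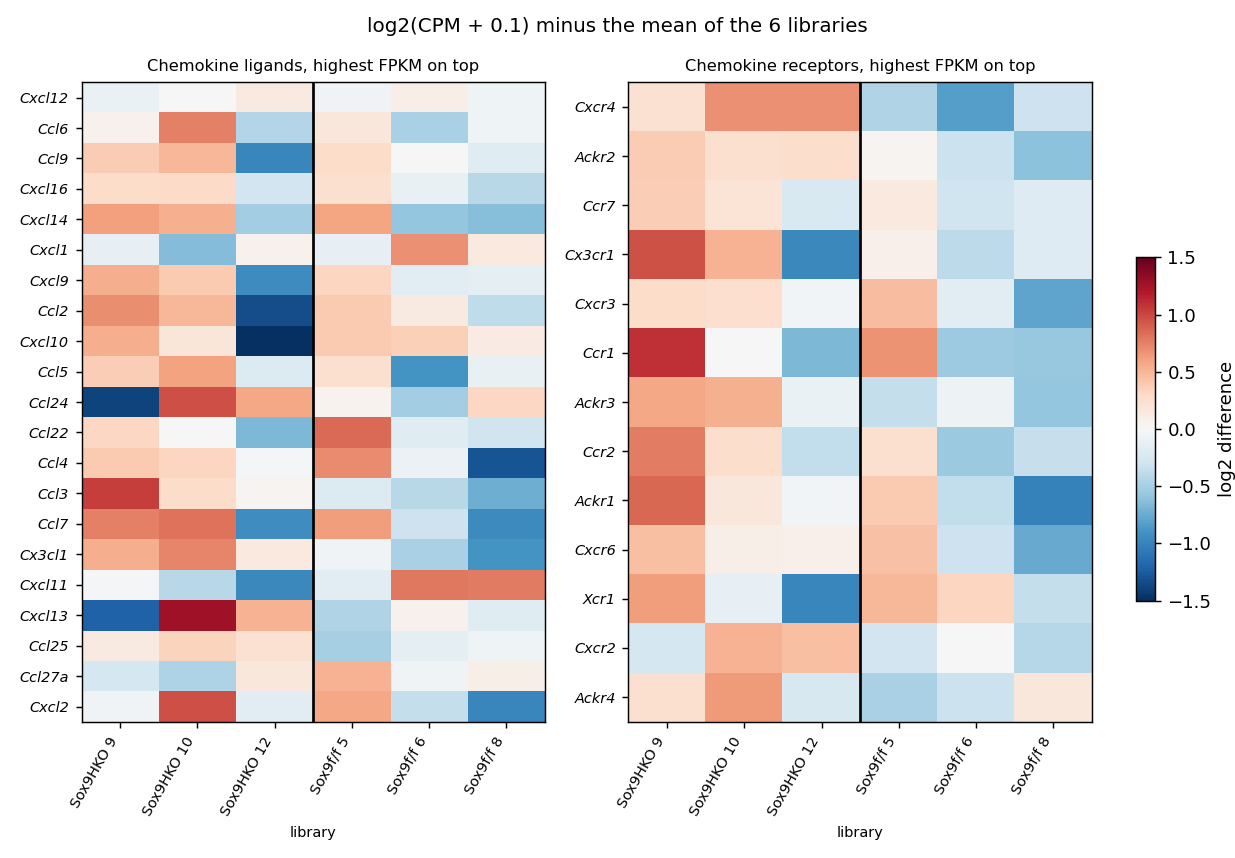
Difference of log2(CPM + 0.1) from the mean of the 6 libraries (colour, red above and blue below) for tested ligands (left) and 13 of the 14 tested receptors (right), ordered by FPKM, with Sox9HKO libraries left of the line. Sox9HKO replicates 9 and 10 are red for most members and replicate 12 blue for many, among them Cxcl10, Ccl2, Ccl9 and Cx3cr1, while Cxcr4 is red in all 3.

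Markers of leukocytes had mostly positive log2 fold changes, and edgeR called 0 of them at an adjusted p of 0.05. The 12 Kupffer cell markers summed to 964, 1818 and 997 CPM in the libraries labelled Sox9HKO, against 1023, 868 and 852 CPM in those labelled Sox9f/f, and all 12 had positive log2 fold changes. Of the 12 tested markers of recruited monocytes and lipid-associated macrophages 12 were positive, and the list summed to 1075, 776 and 777 CPM, against 793, 439 and 435 CPM. T and NK cell markers (14 of 15 positive) summed to 14.2, 10.9 and 9.29 CPM, against 11.3, 6.42 and 6.94 CPM. Neutrophil markers (5 of 5 tested positive, 7 not tested) summed to 14.8, 23.7 and 18.1 CPM, against 14.01, 7.27 and 7.71 CPM, and among them Retnlg stood at 0 in Sox9f/f replicates 6 and 8 and Ly6g at 0 in 5 of 6 libraries. No marker of these 4 lists was at 0 in every library. As with the members, a low marker can pass the filter through the group where it is high. These counts of signs thus describe the lists and support nothing further, least of all for neutrophils.

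In each of these lists Sox9f/f replicate 5 was the highest of its group, as it was for Ccr1, Ccr2, Ccl2 and Ccl4. Dendritic cell markers (7 of 9 positive) summed to 433, 353 and 229 CPM, against 415, 242 and 215 CPM, and B cell markers (3 of 4 tested positive) to 12.2, 16.7 and 7.44 CPM, against 9.49, 9.46 and 9.45 CPM. Stellate cell markers (12 of 12 positive) summed to 922, 1016 and 759 CPM, against 681, 556 and 556 CPM, and cholangiocyte markers, Sox9 among them (8 of 8 tested positive), to 66.7, 81.5 and 95.6 CPM, against 43.9, 47.5 and 39.0 CPM. Sinusoidal endothelial markers (4 of 10 positive) summed to 596, 727 and 459 CPM, against 636, 563 and 628 CPM, hepatocyte markers had 0 of 6 positive, and platelet markers 1 of 3 tested. DESeq2 called 7 of 12 stellate cell markers and 3 of 8 tested cholangiocyte markers as higher, where it called 2.31% of all tested genes. It also called 1 of 12 tested markers of recruited monocytes and lipid-associated macrophages as higher, and 0 in the other marker lists. The part of any of these cells in the chemokine values was not tested.

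Genes that act with chemokines were read from the same fit, and edgeR called 0 of them at an adjusted p of 0.05. Of 25 genes of chemokine signal transduction 20 were positive, with a median log2 fold change of 0.38. An unadjusted edgeR p under 0.05 was reached by 6, each of them higher. Over all tested genes 9.74% were higher and 10.1% lower at this p, and DESeq2 called 2.31% as higher and 1.97% as lower. The 1 gene that DESeq2 called, Rgs1, a brake on G protein signalling in leukocytes, had 7.31, 6.63 and 9.87 CPM, against 3.88, 3.39 and 2.72 CPM, a log2 fold change of 1.25 ± 0.23 with an edgeR adjusted p of 0.139. Next by p were the phospholipase Plcb2 (0.75 ± 0.26) and the G protein subunit Gng2 (0.75 ± 0.28). Of 23 tested inducers of chemokine genes 11 were positive and 12 negative, with a median of -0.00. At an unadjusted edgeR p under 0.05, where 9.74% of all tested genes were higher, 2 of the 23 were higher. Those were the cytokine genes Il1b, the 1 that DESeq2 called, and Il1a, at 1.15 ± 0.34 and 0.91 ± 0.27.

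Of 9 peptidases that can trim or release chemokines 8 were positive. An unadjusted edgeR p under 0.05 was reached by 2, each of them higher, where 9.74% of all tested genes were. Mmp2 was the 1 called by DESeq2, which called 2.31% of all tested genes as higher. Mmp2 stood at 0.72 ± 0.17, Mmp9 at 0.60 ± 0.24 and Mmp12 at 0.83 ± 0.48 on the log2 scale. Among 7 tested chemokine and related genes under other symbols 4 were positive and 3 negative, and DESeq2 called 0. Gpr182, a chemokine-scavenging receptor of sinusoidal endothelium, had 41.4, 52.1 and 38.1 CPM in the libraries labelled Sox9HKO, against 55.2, 61.7 and 56.6 CPM in those labelled Sox9f/f. Its groups did not overlap, its log2 fold change was -0.40 ± 0.14 with an edgeR adjusted p of 0.188, and its sign was opposite to those of the 4 Ackr genes. Cmklr1, the chemerin receptor, stood at 0.40 ± 0.27 and Cklf at 0.47 ± 0.34.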

How the data were processed

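Liver RNA of 3 Sox9HKO and 3 Sox9f/f libraries was compared by genotype label. The deposited table gives raw counts per gene and FPKM values, per the file headers. Per the submitters' processing notes, which state no roles, mm10 and GRCm38.p4 were in use, as were StringTie 1.3.0 and HISAT2 2.0.4. No source used here gives the counting tool, annotation release or strandedness. The FPKM followed count over a fixed gene length to within 0.0048%, a length whose definition no source used here gives.

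The test on counts was that of edgeR 4.0.16 under R 4.3.3 (filterByExpr, TMM, robust quasi-likelihood test, no covariates), with Benjamini-Hochberg adjustment over 14137 genes. Standard errors come from the fold change and its F statistic, and CPM uses TMM-scaled totals. The script was tested on simulated data. Alternatives were DESeq2 1.42.0, limma 3.58.1 (voom with quality weights, and log2 FPKM with a pseudocount of 0.5 or 0.1), RLE and library-size scaling, no filter, a filter of 1 CPM in 3 libraries, a non-robust fit, removal of length and GC trends (GENCODE M21 transcripts, 99.7% of tested genes), and each library left out. For 558 genes DESeq2's adjusted p was missing and was left so. Promoters are RefSeq's for 44 of 64 member symbols, with a single row looked up per symbol. Figures used matplotlib 3.10.9.

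Members, lists and tests were chosen with earlier results of these data known. The values in every library are given for the 8 ligands and 6 receptors of highest FPKM, the 6 of each with the smallest p and those called by DESeq2. Other members named with values were chosen after their values were seen. From each pathway list up to 3 genes of smallest p are named. A receptor and an inducer that these rules select are not reported here, though they remain in the fit, the counts and the sums.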

Additional observations from a re-analysis of the deposited data

How the results depend on the processing

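No paired analysis was possible because the groups share no replicate numbers. edgeR called 0 genes, 0 ligands and 0 receptors. DESeq2 called 605 genes, 1 ligand and 1 receptor, and edgeR without a filter on low counts called 10 genes. With single libraries left out, genes called ranged from 0 to 3, with 2 without Sox9HKO replicate 12 and 3 without Sox9f/f replicate 5, and ligands and receptors called stayed at 0. The alternatives other than DESeq2 also called 0 members. Over all 16 alternatives the ligand median log2 fold change lay between 0.02 and 0.47 and the receptor median between 0.24 and 0.73. Leaving out single libraries gave 0.02 to 0.45 for ligands and 0.30 to 0.73 for receptors. The ligand median was 0.47 without the filter and 0.13 with the stricter filter, and the receptor median was 0.24 on log2(FPKM + 0.5), since a pseudocount shrinks low genes. Library-size scaling moved the median of all genes to 0.11 and turned no tested member's sign, but with it 15.7% of all tested genes were higher and 4.25% lower at an unadjusted p under 0.05, in place of 9.74% and 10.1%.

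Signs turned in at least 1 alternative for 12 of the 35 tested members, 9 ligands and 3 receptors, none of them called by edgeR or DESeq2. These were Ccl2, Ccl4, Ccl6, Ccl9, Ccl22, Ccl24, Cxcl9, Cxcl10, Cxcl12, Ccr1, Cxcr3 and Xcr1. Without Sox9HKO replicate 9 the log2 fold change was -0.11 for Ccl9, -0.15 for Cxcl9 and -0.23 for Ccl2. Without Sox9HKO replicate 10 it was -0.066 for Ccl6, -0.19 for Ccl9, -0.03 for Cxcl9 and -0.07 for Ccl2. Without Sox9f/f replicate 8 it was -0.01 for Cxcl12, -0.04 for Ccl9, -0.08 for Ccl2 and -0.022 for Cxcr3. Cxcl12 stood at -0.045 without Sox9HKO replicate 12, at -0.014 in voom and at -0.039 with length and GC trends removed, where Ccl9 stood at -0.015. With single libraries left out the highest values were 0.092 for Cxcl12, 0.55 for Ccl6, 0.39 for Ccl9, 0.45 for Cxcl9, 0.52 for Ccl2 and 0.66 for Cxcr3. Over the libraries left out in turn, Cxcl2 lay between 0.02 and 1.11, Ccr1 between -0.28 and 0.95, Ccl24 between -0.07 and 0.83, Ccl4 between -0.13 and 0.93, Ccl22 between -0.53 and 0.18 and Xcr1 between -0.78 and 0.11. The cause was not tested. Cxcr4 lay between 0.84 and 1.24 and Cx3cl1 between 0.66 and 1.21 over the alternatives, with adjusted p from 0.0115 to 0.353 and from 0.0499 to 0.379. Ccl3 and Cxcl2, with at most 47 and 46 counts in any library, had standard errors of 0.41 and 0.55. Ccl2, with up to 219 counts, had 0.48. The part of depth in these errors was not tested.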
